A study of Homo sapiens with 6 samples.

Results

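The genes described here are those of pre-mRNA splicing factors whose symbols start with SRSF, HNRNP, SF3A, SF3B, SNRP, U2AF or PRPF, or with RBM or LSM followed by a digit. Of 14200 symbols in the deposited table, 119 matched. CPM is the read count of a gene scaled to the size of its library. Members are the 116 symbols that averaged 1 CPM or more over the 6 libraries, and all 116 were among the 12865 genes tested. The name rule also takes in 3 symbols that encode no protein, namely the pseudogene HNRNPA3P1 and the antisense RNAs HNRNPU-AS1 and RBM26-AS1. HNRNPA1P33, RBM24 and RBM44 matched by name but stayed under the level limit. RBM24 and RBM44 were just outside it, with means of 0.992 and 0.761 CPM, and the members closest to it on the inside were RBM26-AS1 at 4.38 CPM and U2AF1L4 at 4.6 CPM.

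The 2 groups were SETD5 knockdown, labelled SETD5-deficient and made by siRNA transfection with a lipid reagent, and control, each with 3 libraries of poly(A)-selected, stranded mRNA from Huh7. Huh7 is an established human hepatocellular carcinoma line, and SETD5 encodes a SET-domain protein of chromatin. The treatment of the control cells is not given in the sources used here. Nothing says that libraries of a group are separate cultures, so the p-values describe the scatter of these libraries alone, and that scatter may be technical.

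Splicing removes introns in steps carried out by small nuclear ribonucleoproteins. U1 recognises the start of an intron and U2 its branch point. The U4/U6.U5 tri-snRNP then joins and is rearranged into the catalytic spliceosome. Each snRNP carries a ring of Sm or Sm-like (LSM) proteins, while SR proteins and hnRNPs bind exons and introns and shift the choice of splice sites. In hepatoma cells, as in other dividing cells, these genes are abundantly and broadly expressed. Gene-level counts do not show which isoforms were made, so splicing itself was not measured here.

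SETD5, the siRNA target, was at 136, 140 and 138 CPM in the knockdown libraries, against 212, 210 and 202 CPM in the control libraries. Depth was 15919552 to 16609918 reads in the knockdown libraries and 14038447 to 17095417 reads in the control libraries. All 10 hepatocyte and hepatoma markers were measured, and they summed to 42667 to 43018 CPM in knockdown libraries and 45082 to 46042 CPM in control libraries. AFP was the largest part of this sum, and single markers went both ways at a limma adjusted p under 0.05. TTR, APOB, TF, APOA1, SERPINA1 and AFP were lower, at 0.619 to 0.95 times the control. GPC3, FGB and ALB were higher, at 1.07 to 1.28 times, and HNF4A did not pass. Immune markers (3 of 5 measured) summed to 621 to 699 CPM in knockdown libraries, against 254 to 280 CPM in control libraries. Most of that sum was LYZ, and the leukocyte marker PTPRC stayed at or below 1.78 CPM in every library. CD14, the remaining immune marker measured, was at 0.485 times the control (limma adjusted p = 8.3e-06). Fibroblast markers (3 of 5 measured, mostly COL1A2) summed to 309 to 318 CPM after knockdown and 167 to 176 CPM in controls, while PDGFRB among them was at 0.722 times the control (limma adjusted p = 1.42e-06). The endothelial markers PECAM1 and CDH5 were under 1 CPM in every library, and the part of these differences in the results below was not tested.

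After SETD5 knockdown more splicing-factor genes rose than fell, and nearly all changes were small. Limma called 46 of the 116 members higher and 16 lower at an adjusted p under 0.05, where 25.7% of all tested genes were called higher and 26.5% lower, or 52.1% in either direction. The share higher was 39.7% of the members and the share lower 13.8%. This excess of rises was not common to all classes. RBM genes gave 17 rises and 1 fall, hnRNP genes 9 and 4, and PRPF genes 7 and 2. Counts were smaller for SNRP (3 and 1), SR (2 and 1) and U2AF genes (2 and 0). LSM genes gave 4 and 4, and SF3A and SF3B genes 2 and 3. Calls depend on level, so genes averaging at least 20 CPM were also compared. Of the 7696 tested genes at that level, 30.4% were called higher and 30.4% lower, or 60.8% in either direction. Of the 104 members at that level, 42.3% were called higher and 13.5% lower, or 55.8% in either direction. The median log2 fold change, knockdown over control, was 0.068 for the members and -0.0012 for all tested genes. Summed over the members, levels were 22679, 22978 and 22673 CPM in knockdown libraries, against 22030, 22538 and 22087 CPM in control libraries. The lowest knockdown sum lay above the highest control sum, at 1.03 times the control on average.

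Larger changes were few. On the log2(CPM + 1) scale 5 called members rose and 3 fell by at least 1.2-fold, where 12.6% of all tested genes rose and 14.7% fell by that much, or 27.4% in either direction. The 5 rises were RBM4, PRPF40B, RBM4B, RBM7 and RBM15. HNRNPLL lay at that limit, and with a pseudocount of 0.1 or 0.5 CPM 6 members rose that far. The 3 falls were LSM14B, LSM11 and RBM26-AS1, and 5 members fell that far without control replicate 2. The median absolute log2 change was 0.10 for the members and 0.16 for all tested genes. The knockdown and control values did not overlap in 69 members, 49 of them higher and 20 lower. Among all tested genes, 57.3% did not overlap, with 28.6% higher and 28.8% lower. The median standard error of a member's log2 fold change was 0.037. Without the mean-variance trend of the test, 45 of the 62 called members were still called. Those that lost their call in that setting included HNRNPA3, HNRNPAB, HNRNPH1, HNRNPH3, HNRNPUL2, LSM5, LSM7, PRPF19, RBM10, RBM14, RBM25, RBM34, SF3A3, SNRPA1, SNRPD1 and U2AF1.

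**Figure D1:**
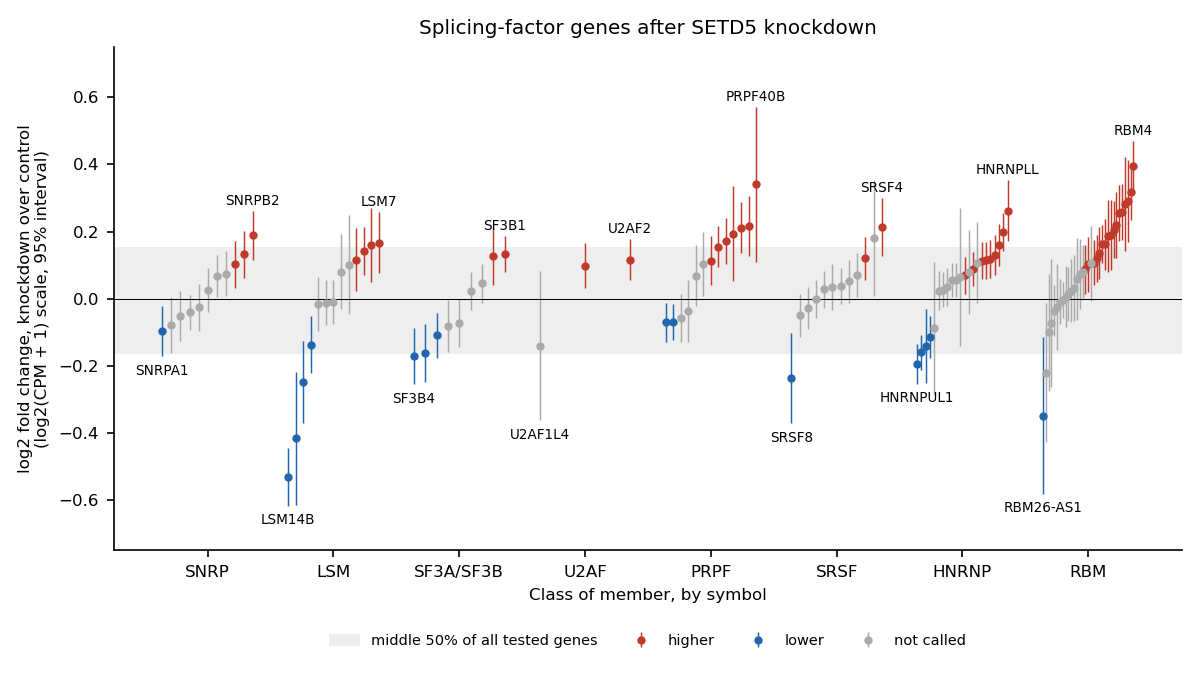
Log2 fold change of each of the 116 members, SETD5 knockdown over control, on the log2(CPM + 1) scale (vertical axis), by symbol class (horizontal axis), with 95% intervals from limma. Red points were called higher and blue points lower at an adjusted p under 0.05. The grey band holds the middle 50% of all tested genes. LSM14B and LSM11 are the lowest points and RBM4 the highest.

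The LSM genes, 13 members, held the largest falls, but their counts were near the shares of all tested genes. In this class 4 rose (30.8%), 4 fell (30.8%) and 5 were not called, where 25.7% of all tested genes rose and 26.5% fell. The median log2 fold change was -0.0097. LSM14B encodes an mRNA-binding protein of the LSM14 family, which acts in cytoplasmic mRNA granules and translation rather than in the spliceosome. It was at 50.1, 53.1 and 51.2 CPM in knockdown libraries, against 75.5, 75.9 and 73.0 CPM in control libraries. The groups were far apart, at 0.688 times the control (log2 fold change -0.53, SE 0.042, limma adjusted p = 4.19e-13). Its paralog LSM14A was at 179, 196 and 191 CPM after knockdown and 189, 190 and 190 CPM in controls, with a 95% interval of -0.076 to 0.057 for the log2 fold change. Within a library, the ratio of LSM14B to LSM14A reads, which does not depend on scaling, was 0.280, 0.271 and 0.268 after knockdown and 0.399, 0.399 and 0.384 in controls.

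LSM10 and LSM11 replace 2 Sm proteins in the U7 snRNP, which processes the ends of histone mRNAs instead of splicing. LSM11 fell to 5.56, 6.32 and 6.34 CPM in knockdown libraries, against 8.72, 8.29 and 8.29 CPM in control libraries (0.72 times, limma adjusted p = 0.000493). These values rest on 89 to 149 reads per library. LSM10 was at 15.8, 17.5 and 16.5 CPM after knockdown and 15.2, 15.4 and 15.6 CPM in controls, and did not pass (limma adjusted p = 0.253). The LSM11 to LSM10 ratio was 0.353, 0.361 and 0.384 in knockdown libraries and 0.575, 0.538 and 0.532 in control libraries, with no overlap.

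LSM1 to LSM8 form the rings of mRNA decay and U6 snRNA. LSM2, present in both rings, fell to 26.1, 26.9 and 30.9 CPM after knockdown, against 34.8, 32.9 and 32.4 CPM in controls (0.839 times, limma adjusted p = 0.000791). LSM1, which defines the cytoplasmic decay ring, fell to 63.9, 67.0 and 66.0 CPM, against 73.6, 74.4 and 69.0 CPM in controls. LSM8, which defines the nuclear U6 ring, was at 71.4, 68.7 and 72.5 CPM after knockdown and 71.3, 71.2 and 72.5 CPM in controls, without passing. Shared subunits went the other way: LSM7 rose to 1.13, LSM6 to 1.12, LSM4 to 1.10 and LSM5 to 1.09 times the control. LSM6 did not pass without knockdown replicate 3 (limma adjusted p = 0.0855), control replicate 1 (0.0553) or control replicate 3 (0.0582). LSM5 passed only with all libraries (limma adjusted p = 0.0347), without knockdown replicate 1 or without control replicate 2, and reached 0.0586 to 0.22 in the other 4 sets of 5 libraries. LSM3 was at 0.992 times the control and LSM12, which belongs to neither ring, at 1.06 times, and neither passed.

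The 3 lowest LSM genes share the word GCACCT in their 3' UTR, which earlier scans of these data had picked out among genes that moved after knockdown. The sites are shown because they are a feature these members share that the name rule did not use, each with 12 bases on either side, 5' to 3' on the transcript strand, with the word in capitals. LSM4, which rose, holds it 2 times and is shown for contrast.
LSM14B: tgtcgaaaataaGCACCTtggtaactaaac
LSM11: aaaaataagtgtGCACCTgagaccttcagt
LSM2: tcccagtccccaGCACCTgcctttctcact
LSM4, first: gagcttctgggtGCACCTagcgggtctcct
LSM4, second: ctcctcgggcgcGCACCTgagacactgagt
On GRCh38 these stretches lie at chr20:62135179-62135208 (plus strand) for LSM14B and chr5:157760003-157760032 (plus strand) for LSM11. That of LSM2 lies at chr6:31797507-31797536 (minus strand), and those of LSM4 at chr19:18306862-18306891 and chr19:18306405-18306434 (minus strand). Each lies within a single exon, in the 3' UTR of the GENCODE 29 transcript used. The word starts at base 1043 of 1230 in the 3' UTR of LSM14B, at base 4751 of 5445 in LSM11 and at base 233 of 361 in LSM2. In LSM4 the words start at bases 585 and 1042 of 1234. LSM3 also holds the word, and the other 8 LSM genes do not.

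**Figure D2:**
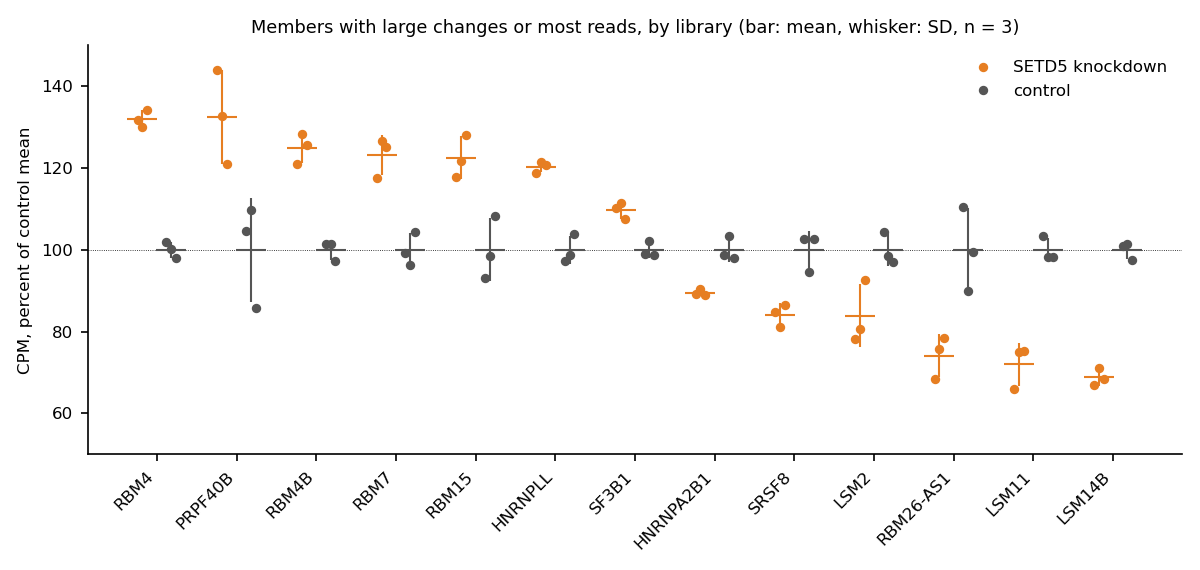
Level of 13 members in each library as a percent of the control mean (vertical axis), SETD5 knockdown left of control for each gene. Points are libraries, the horizontal bar is the mean and the whisker the SD (n = 3). All 3 knockdown points of LSM14B lie under 75% of the control mean and all 3 of RBM4 above 125%.

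The SNRP genes encode the Sm ring and the proteins specific to the U1 and U2 snRNPs. Of 11 members, 3 rose (27.3%), 1 fell (9.09%) and 7 were not called, where 25.7% of all tested genes rose and 26.5% fell. The share that rose was thus near that of all tested genes, and the class median was 0.027. The U2 proteins SNRPB2 and SNRPA1, which bind U2 snRNA as a pair, went in opposite directions. SNRPB2 rose to 111, 107 and 107 CPM after knockdown, against 95.1, 96.0 and 93.6 CPM in controls (1.14 times, limma adjusted p = 3.18e-05). SNRPA1 was at 89.9, 92.5 and 94.1 CPM after knockdown and 98.0, 101 and 97.2 CPM in controls, a fall to 0.934 times (limma adjusted p = 0.0253). That call ended without knockdown replicate 1 (limma adjusted p = 0.119) or control replicate 2 (0.0795). The ratio of SNRPB2 to SNRPA1 was 1.24, 1.15 and 1.14 in knockdown libraries and 0.971, 0.954 and 0.963 in control libraries. Both were set side by side for their shared complex after their values were seen.

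Among the Sm ring genes, SNRPE rose to 137, 139 and 135 CPM after knockdown, against 122, 131 and 121 CPM in controls (limma adjusted p = 0.00184). SNRPD1 was at 1.07 times the control. It passed with all libraries (limma adjusted p = 0.0127) but not without knockdown replicate 2 (0.0762), control replicate 1 (0.0513) or control replicate 3 (0.106). SNRPB, the SNRP gene with the most reads, was at 505, 503 and 504 CPM after knockdown and 526, 516 and 513 CPM in controls. Its groups did not overlap, yet it did not pass (95% interval of the log2 fold change -0.093 to 0.012). SNRPD2, SNRPD3, SNRPF and SNRPG, and the U1 proteins SNRPA and SNRPC, were at 0.946 to 1.05 times the control without passing. Sm genes have processed copies elsewhere in the genome, so single members are uncertain where reads could map to several places.

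The SF3A and SF3B genes encode the U2 subcomplexes that hold the branch point. Of 9 members, 2 rose (22.2%), 3 fell (33.3%) and 4 were not called, where 25.7% of all tested genes rose and 26.5% fell. The class median was -0.073. SF3B1, the large subunit that clamps the branch site and is often mutated in blood cancers, rose to 594, 600 and 579 CPM after knockdown, against 533, 550 and 532 CPM in controls. The ratio was 1.10 times the control (log2 fold change 0.13, SE 0.026, limma adjusted p = 6.16e-05). SF3B4, which contacts the intron upstream of the branch site, fell to 59.2, 61.6 and 60.8 CPM, against 66.3, 68.0 and 70.5 CPM in controls (0.886 times). The small subunit SF3B5 fell to 64.1, 67.6 and 69.3 CPM, against 71.5, 76.3 and 77.5 CPM in controls (0.893 times). Neither SF3B4 nor SF3B5 overlapped between the groups.

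In SF3A, SF3A2 rose to 65.4, 66.5 and 68.6 CPM after knockdown, against 59.5, 63.4 and 60.4 CPM in controls, and SF3A3 fell to 148, 154 and 143 CPM, against 159, 162 and 159 CPM. SF3A2 did not pass without knockdown replicate 3 (limma adjusted p = 0.0602) or control replicate 1 (0.062), nor SF3A3 without knockdown replicate 3 (0.0562). SF3A1, the scaffold of the trimer, was at 0.951 times the control, without overlap between the groups and without passing (limma adjusted p = 0.0805). SF3B2, SF3B3 and SF3B6 were at 0.945 to 1.03 times the control without passing. Leaving out the members with GCACCT in the 3' UTR (SF3A3, SF3B3 and SF3B5) left 3 called SF3A and SF3B genes. Without knockdown replicate 3, 3 of the 9 passed.

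U2AF2 and U2AF1 form the heterodimer that reads the polypyrimidine tract and the AG at the end of the intron. U2AF2 rose to 236, 246 and 247 CPM after knockdown, against 227, 218 and 227 CPM in controls (1.08 times, limma adjusted p = 0.00156). U2AF1 rose to 155, 155 and 151 CPM, against 138, 147 and 145 CPM in controls (1.07 times, limma adjusted p = 0.0132), but not without knockdown replicate 1 (0.0546) or control replicate 1 (0.117). Their ratio was 0.656, 0.631 and 0.611 in knockdown libraries and 0.607, 0.675 and 0.638 in control libraries, and these overlapped. U2AF1L4, a U2AF1-like gene, was at 4.38, 4.30 and 4.31 CPM after knockdown and 4.74, 5.01 and 4.86 CPM in controls. It did not pass (limma adjusted p = 0.293), although its groups did not overlap. Without the mean-variance trend it passed (0.0194).

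PRPF genes, mostly tri-snRNP and U5 proteins, rose in 7 of 13 members (53.8%) and fell in 2 (15.4%), with a median of 0.11. By comparison, 25.7% of all tested genes rose and 26.5% fell. The tri-snRNP proteins PRPF3 and PRPF4, which bind each other on U4/U6, both rose. PRPF3 rose to 54.3, 54.8 and 54.0 CPM after knockdown, against 46.0, 47.6 and 46.4 CPM in controls (1.16 times, limma adjusted p = 0.000105). PRPF4 rose to 108, 108 and 105 CPM, against 91.5, 96.6 and 89.3 CPM in controls (1.16 times, limma adjusted p = 1.02e-05). PRPF8, the U5 scaffold at the catalytic centre, rose to 578, 628 and 561 CPM, against 523, 527 and 536 CPM in controls. PRPF6, the U5 bridging protein, rose to 1.13 times, the U4 protein PRPF31 to 1.08 times and the second-step factor PRPF18 to 1.15 times the control. PRPF18 did not pass without knockdown replicate 3 (limma adjusted p = 0.0655) or control replicate 3 (0.109). No knockdown value of any of these 6 genes reached down into its control range.

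PRPF40B, a U1-associated protein, had the largest ratio of the class at 6.13, 5.65 and 5.14 CPM after knockdown and 4.45, 4.67 and 3.64 CPM in controls (1.33 times, limma adjusted p = 0.0116). It rests on few reads and did not pass without knockdown replicate 1 (0.0672) or control replicate 3 (0.0841). PRPF19, the ubiquitin ligase that names the Prp19 complex, was at 594, 617 and 591 CPM after knockdown and 627, 624 and 638 CPM in controls. It passed with all libraries, at 0.954 times the control (limma adjusted p = 0.027), but in only 2 of the 6 sets of 5 libraries (0.057 to 0.115 in the others). It also missed the threshold under median centring (0.0656) and quantile normalization (0.0609). PRPF38A, PRPF38B, PRPF39 and the kinase PRPF4B were at 0.96 to 1.07 times the control without passing.

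SR proteins, which bind exonic enhancers through RNA recognition motifs and contact other factors through arginine-serine tails, changed little. Of 12 members, 2 rose (16.7%), 1 fell (8.33%) and 9 were not called, where 25.7% of all tested genes rose and 26.5% fell. The class median was 0.036. SRSF4 rose to 63.0, 62.0 and 65.5 CPM after knockdown, against 54.2, 54.3 and 55.4 CPM in controls (1.16 times, limma adjusted p = 6.93e-05). SRSF7 rose to 213, 226 and 222 CPM, against 208, 200 and 200 CPM in controls (1.09 times, limma adjusted p = 0.00142). SRSF8, a retrocopy of the SRSF2 gene, fell to 19.0, 18.2 and 19.4 CPM, against 23.0, 21.2 and 23.0 CPM in controls (0.842 times, limma adjusted p = 0.003). As a close copy of SRSF2, SRSF8 is uncertain in how reads were split, and SRSF2 itself was at 0.982 times the control without passing. SRSF1, the SR gene with the most reads, was at 475, 462 and 462 CPM after knockdown and 455, 463 and 444 CPM in controls, with a 95% interval of the log2 fold change of -0.017 to 0.093. SRSF6 was at 398, 391 and 408 CPM after knockdown and 393, 409 and 396 CPM in controls. Without knockdown replicate 2, 5 SR genes passed in place of 3.

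The hnRNP genes, 22 members, encode RNA-binding proteins that coat nascent transcripts and often repress splice sites. Here 9 rose (40.9%), 4 fell (18.2%) and 9 were not called, where 25.7% of all tested genes rose and 26.5% fell. The class median was 0.067. HNRNPLL, a regulator of CD45 exon choice in lymphocytes, rose to 56.5, 57.8 and 57.4 CPM after knockdown, against 46.3, 46.9 and 49.4 CPM in controls (1.2 times, limma adjusted p = 6.68e-06). HNRNPA0 rose to 354, 358 and 353 CPM, against 317, 303 and 308 CPM in controls (1.15 times, limma adjusted p = 1.92e-07). HNRNPF, which binds G-rich runs, rose to 233, 240 and 230 CPM, against 212, 202 and 214 CPM in controls (1.12 times). HNRNPD, HNRNPL, HNRNPA3, HNRNPDL, HNRNPH1 and HNRNPAB rose to 1.05 to 1.09 times the control, and none of them overlapped between the groups. HNRNPAB did not pass in 4 of the 6 sets of 5 libraries (limma adjusted p of 0.0513 to 0.156, without replicate 1 or 3 of either group).

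The member with the most reads, HNRNPA2B1, fell. It was at 1756, 1780 and 1752 CPM in knockdown libraries, against 1946, 2035 and 1929 CPM in control libraries (0.895 times, log2 fold change -0.16, SE 0.025, limma adjusted p = 2.05e-06). HNRNPUL1, an HNRNPU-like protein, fell to 263, 271 and 256 CPM, against 303, 304 and 298 CPM in controls (0.874 times, limma adjusted p = 6.92e-07). HNRNPH3 fell to 0.923 times the control. HNRNPUL2 was at 53.7, 55.8 and 47.3 CPM after knockdown and 52.6, 61.8 and 58.8 CPM in controls. These overlapped, and its call (limma adjusted p = 0.0277) ended without knockdown replicate 3 (0.276), control replicate 2 (0.196) or control replicate 3 (0.0947), and under quantile normalization (0.0709). HNRNPK, HNRNPU, HNRNPM, HNRNPC and HNRNPR were at 1.02 to 1.04 times the control without passing.

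HNRNPA1 was at 38.4, 34.6 and 37.6 CPM after knockdown and 30.8, 39.0 and 35.1 CPM in controls, and did not pass (limma adjusted p = 0.295). Its intronless copy HNRNPA1L2 was at 37.0, 34.1 and 34.4 CPM after knockdown and 30.0, 35.9 and 32.1 CPM in controls. The HNRNPA1 to HNRNPA1L2 ratio stayed between 1.02 and 1.09 in all 6 libraries. The counting method is not given in the sources used here, so the level of either gene is uncertain, and with it any difference between them.

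The RBM genes, 33 members, are a group by name only. They include splicing regulators but also proteins of RNA decay, RNA modification and ribosome assembly. Of these, 17 rose (51.5%), 1 fell (3.03%) and 15 were not called, where 25.7% of all tested genes rose and 26.5% fell. The class median was 0.10, and the single fall was the antisense RNA RBM26-AS1. RBM4, a splicing regulator that also acts in translation, rose to 109, 107 and 111 CPM after knockdown, against 84.0, 82.6 and 80.9 CPM in controls. That was 1.32 times the control (log2 fold change 0.40, SE 0.036, limma adjusted p = 1.63e-11), the largest log2 rise among the members. Its paralog RBM4B rose to 73.3, 77.7 and 76.0 CPM, against 61.3, 61.4 and 58.8 CPM in controls (1.25 times, limma adjusted p = 4.14e-08). The RBM4 to RBM4B ratio was 1.48, 1.38 and 1.46 after knockdown and 1.37, 1.35 and 1.38 in controls. The paralogs are close in sequence and a readthrough transcript joins RBM14 and RBM4, so the split of reads among them is uncertain.

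Other RBM rises fell into several roles. RBM7, part of the nuclear exosome targeting complex, rose to 27.8, 29.9 and 29.6 CPM after knockdown, against 23.5, 22.8 and 24.7 CPM in controls (1.23 times). RBM15, an adaptor of the complex that methylates adenosine in mRNA, rose to 21.8, 22.6 and 23.7 CPM, against 17.3, 18.2 and 20.1 CPM in controls (1.23 times), and its paralog RBM15B to 1.15 times. RBM5, RBM6 and RBM10, related regulators of exon skipping, rose to 1.12, 1.2 and 1.06 times the control. RBM22, which sits at the catalytic core of the spliceosome, rose to 1.17 times. RBM39 and RBM17, both of which contact U2 proteins, rose to 1.12 and 1.10 times, and the U1-associated RBM25 to 1.08 times. RBM33, RBM38, RBM34, RBM12 and RBM14 rose to 1.07 to 1.2 times, and RBM34 alone of the 17 overlapped between the groups. RBM10 did not pass without replicate 1 or 2 of either group (limma adjusted p of 0.0575 to 0.137). RBM14 did not pass without knockdown replicate 1 (0.0527), knockdown replicate 3 (0.163) or control replicate 3 (0.138).

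RBM genes without a call included RBM3, RBM8A and RBM42. RBM3, the cold-inducible protein and the RBM gene with the most reads, was at 489, 509 and 485 CPM after knockdown and 493, 502 and 492 CPM in controls. The 95% interval of its log2 fold change was -0.058 to 0.051. RBM8A, the Y14 subunit of the exon junction complex, was at 151, 152 and 146 CPM after knockdown and 147, 155 and 149 CPM in controls. RBM19 and RBM28, which act in ribosome assembly, were at 1.05 and 1.02 times the control. RBM41 and RBM48, of the minor spliceosome, were at 1.04 and 0.944 times. RBM26-AS1 was at 3.44, 3.81 and 3.95 CPM after knockdown and 5.56, 4.53 and 5.0 CPM in controls (0.742 times, limma adjusted p = 0.0108). It did not pass without knockdown replicate 1 (0.0511) or control replicate 1 (0.0717), while the RBM26 gene was at 1.06 times without passing (0.0809).

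**Figure D3:**
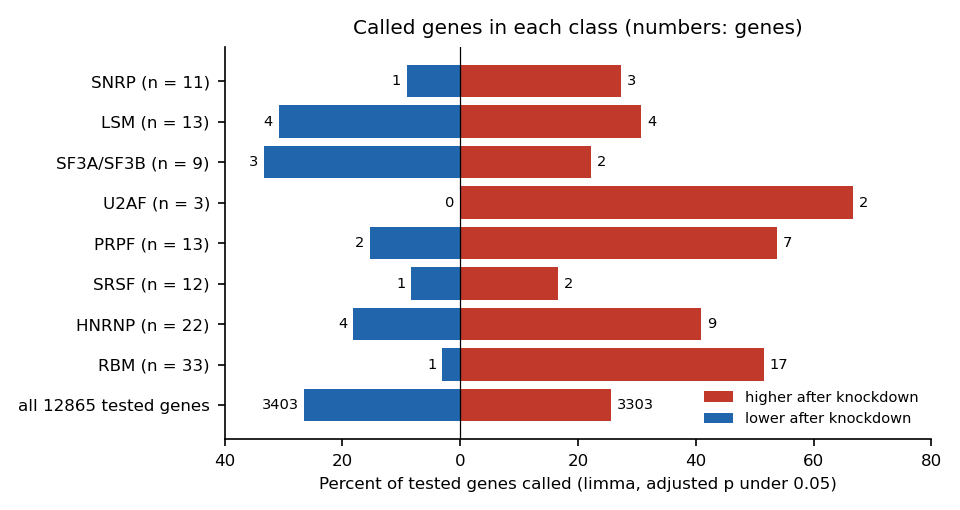
Percent of tested genes in each symbol class that limma called higher (red, to the right) or lower (blue, to the left) after SETD5 knockdown at an adjusted p under 0.05, with the number of genes at each bar. The last row gives all 12865 tested genes. In the RBM class 17 of 33 genes were called higher and 1 lower.

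A 3' UTR could be searched for 111 of the 116 members and 89.6% of the tested genes, using the transcript strand of a single GENCODE 29 transcript per gene. GCACCT was found in 23 members (20.7%) and in 28.7% of the tested genes with a 3' UTR. Among the 23 members with the word 6 rose and 6 fell, and among the 88 without it 39 rose and 8 fell. Over all tested genes, 24.7% with the word rose and 34.5% fell, while 27.9% without it rose and 24.3% fell. The median log2 fold change was 0.014 for members with the word and 0.080 for members without it. Members with the word also had longer 3' UTRs, with a median of 1901 bases against 683.5 bases, and the part of length in these counts was not tested. Earlier scans of these same data had picked out the word, so these counts and medians are no independent support for a link to falls.

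The 6 members that hold the word and fell were LSM14B, LSM11, LSM2, SF3A3, SF3B5 and HNRNPUL2. The sites of SF3A3 and HNRNPUL2 are shown in the same way as those of the LSM genes.
SF3A3: gagatttaatggGCACCTattatgctacat
HNRNPUL2: tcctttctcttgGCACCTgcttccctgcgg
On GRCh38 they lie on the minus strand at chr1:37957848-37957877 for SF3A3 and chr11:62713484-62713513 for HNRNPUL2, each inside the 3' UTR. The 6 members that hold the word and rose were HNRNPA0, LSM4, PRPF40B, RBM17, RBM38 and SNRPD1. RBM28 holds it 4 times and RBM23 3 times, and neither passed, at 1.02 and 1.01 times the control. A match is a description of these letters and does not show that anything bound there.

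**Figure D4:**
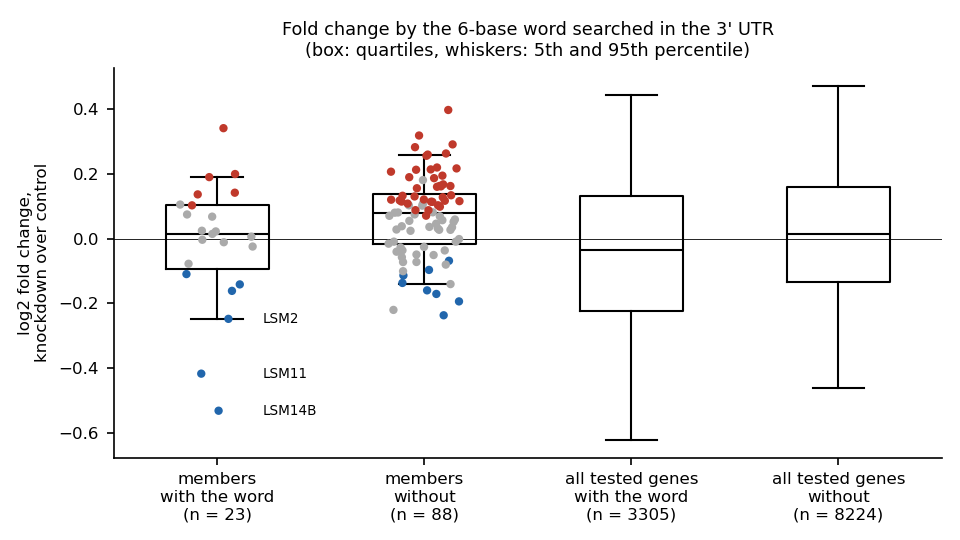
Log2 fold change, SETD5 knockdown over control (vertical axis), for members and for all tested genes, with or without the 6-base word in the 3' UTR. Boxes are quartiles, whiskers the 5th and 95th percentiles, and points single members (red higher, blue lower, grey not called). LSM14B, LSM11 and LSM2 are the lowest of the members with the word.

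Other genes of the splicing machinery were taken from 8 lists. Of their 119 tested genes that are no members, 49 rose (41.2%) and 12 fell (10.1%), with a median log2 fold change of 0.071, where 25.7% of all tested genes rose and 26.5% fell. The list of U1 and U2 proteins rose in 7 of 15 genes and fell in 1. It also holds the tri-snRNP protein SNRNP27, which was among the rises at 1.13 times the control (limma adjusted p = 0.00201). LUC7L, a U1-associated factor, rose to 46.6, 45.4 and 48.8 CPM after knockdown, against 30.6, 35.1 and 33.7 CPM in controls. PHF5A, the SF3B subunit with another name, rose to 1.16 times. The list of U5 and tri-snRNP proteins, counted without SNRNP27, rose in 6 of 12 genes and fell in 1. CD2BP2 was at 1.30 times and the helicase SNRNP200 at 1.15 times the control. Prp19 complex and catalytic step proteins rose in 7 of 21 and fell in none, with SYF2 at 1.25 and BUD31 at 1.18 times. Without knockdown replicate 2, 4 genes of that list passed.

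Minor spliceosome proteins rose in 1 of 9 (11.1%) and fell in 2 (22.2%), where 25.7% of all tested genes rose and 26.5% fell. PDCD7 fell to 18.8, 18.3 and 17.5 CPM after knockdown, against 26.2, 32.6 and 25.2 CPM in controls, and ZMAT5 fell to 10.8, 9.33 and 11.7 CPM, against 16.2, 14.2 and 16.8 CPM. Both encode proteins of the U11/U12 snRNP, and their ratios to the control were 0.65 and 0.674. SNRNP48, of the same particle, was the gene that rose, at 1.17 times (limma adjusted p = 1.18e-05), and SNRNP25 and SNRNP35 did not pass, at 0.998 and 0.937 times. Exon junction and SR-related proteins rose in 6 of 16 (37.5%) and fell in 2 (12.5%). ACIN1 was at 1.16 and MAGOHB at 0.82 times the control. Of that list 5 passed without knockdown replicate 1. Among 8 SR protein kinases, which include the member PRPF4B, 4 rose (50%) and 1 fell (12.5%), with SRPK2 at 1.23 and CLK4 at 1.21 times. CLK4 did not pass without knockdown replicate 1 (limma adjusted p = 0.0547) or control replicate 1 (0.0516), and 3 and 2 kinases passed in those settings.

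Other sequence-specific regulators rose in 15 of 26 (57.7%) and fell in 4 (15.4%), where 25.7% of all tested genes rose and 26.5% fell. PTBP2, the PTB paralog best known from neurons, rose to 32.4, 27.7 and 28.9 CPM after knockdown, against 19.7, 21.6 and 18.3 CPM in controls (1.5 times, limma adjusted p = 1.07e-08). PTBP1, named after its values were seen, was at 480, 464 and 465 CPM after knockdown and 458, 454 and 479 CPM in controls, without passing. PTBP3, also named after its values were seen, rose to 321, 339 and 320 CPM, against 256, 256 and 254 CPM in controls (1.28 times, limma adjusted p = 1.22e-12). ESRP2, an epithelial splicing regulator, fell to 28.7, 28.6 and 27.7 CPM, against 39.4, 36.4 and 42.3 CPM in controls (0.719 times, limma adjusted p = 1.47e-08). Genes of snRNP assembly rose in 3 of 13 (23.1%, near the 25.7% of all tested genes) and fell in 1. GEMIN2, of the SMN complex, rose to 1.18 times, and SNUPN, the snRNP import adaptor, fell to 0.797 times the control. Without knockdown replicate 2 or control replicate 3, 2 of that list passed.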

How the data were processed

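What the authors deposited is 1 file of log2 values for 14200 genes and 6 libraries, whose name calls them normalized CPM. Per the submitters' processing notes, STAR 2.5.1, R 3.3.0, hg19 and mm10 were used, with no role stated. How reads were counted, scaled or filtered is not given in the sources used here. Turned back from log2(CPM + 1), 100% of the values were whole reads to within 0.01 read. The scaling factors that this implies differed from TMM factors computed here by less than 0.001.

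The test was limma 3.58.1 under R 4.3.3, two-sided, with group as its only term and a mean-variance trend. It covered the 12865 genes averaging 1 CPM or more, with Benjamini-Hochberg adjustment over all of them and a threshold of 0.05. Log2 fold changes carry the pseudocount of 1 CPM and so understate changes of low genes. Times the control is the ratio of mean CPM. CPM are not divided by length, so no levels are compared between genes. At these depths 3 reads equal 0.176 to 0.214 CPM, and read depth speaks for counting error only.

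Members, lists and the 3' UTR word were chosen with earlier results of these data known. Each class is described by up to 3 higher and 3 lower called members of largest change and its member with the most reads, or by every member where it has 5 or fewer. The 5 largest called changes in each direction and up to 2 called genes per list are also named, and other members, list genes and markers were named after their values were seen. Libraries of a group differed by more than sampling noise, with a chi-square per gene of 1.25 to 2.10. In a simulation of this comparison over 12865 genes, the test found 54% of 50 genes changed 1.2-fold, and it made 6 calls among 12665 unchanged genes. It found 90% of 50 genes at 1.5-fold. Far fewer genes were changed in the simulation than were called in the data, and they were drawn from all tested levels. These shares therefore do not give the power or the error rate for the members. Refits with other pseudocounts, filters, scalings, voom, a replicate block and 1 library left out are given in the closing section. Sequences come from GENCODE 29 transcripts on GRCh38, matched by symbol. The values of 1 PRPF member and the sequence of 1 site are not reported here.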

Additional observations from a re-analysis of the deposited data

How the results depend on the processing

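Of the 62 called members, 45 were still called without the mean-variance trend, 52 to 58 with 1 library left out and 60 to 62 in each other refit, and none changed sign. The 40 members called in every refit held 31 rises and 9 falls. Without knockdown replicate 3 or control replicate 3, 52 remained. Without the trend, hnRNP calls numbered 8, SNRP calls 2, exon junction and SR-related calls 5 and snRNP assembly calls 2. Rises of at least 1.2-fold numbered 8 under median centring and 8 under quantile normalization. With members holding GCACCT left out, chosen after seeing the data, 10 members fell, 1 of them by at least 1.2-fold, with 4 LSM and 3 SF3A and SF3B calls; fewer members were counted. With 1 library left out, 40 to 52 members rose and 12 to 18 fell, 5 to 7 and 2 to 5 of them by at least 1.2-fold (5 falls without control replicate 2). The calls ran from 3 to 5 for SR proteins, 3 to 7 for SF3A and SF3B, 1 to 2 for U2AF, 4 to 10 for the Prp19 list, 5 to 8 for exon junction and SR-related genes, 2 to 5 for kinases and 2 to 4 for snRNP assembly. The cause of these shifts was not tested. LSM14A, not called, turned positive, at 0.0010 under median centring and 0.0022 under quantile normalization (-0.037 to 0.028 with 1 library left out). RBM3, not called, turned positive, at 0.0031 with plain library totals, 0.0068 under median centring and 0.012 under quantile normalization (-0.025 to 0.0096 with 1 library left out). Correlation across genes was weak between knockdown and control libraries of the same replicate number (r of -0.011 to 0.054) and of other numbers (-0.060 to 0.021). The highest values were those of replicate 2 (0.054) and replicate 3 (0.042) with the same number, so pairing was not settled. With the replicate block 51 members rose and 17 fell, and the 62 were all still called. DESeq2 and edgeR were not run, since the deposited unit is not counts. Reads limit the low members, with 51 reads in the thinnest case.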
